A study of Arabidopsis thaliana with 12 samples.

Results

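The stearoyl-ACP desaturase family of Arabidopsis thaliana was followed at the transcript level in untreated seedlings that differed in the PRT6 branch of the N-degron pathway. The family was taken as 7 of the 37885 genes counted, chosen by gene identifier: S-ACP-DES6 (AT1G43800, named FTM1 in the count table), SSI2 (AT2G43710), AT5G16240, AT5G16230, AT3G02610, AT3G02620 and AT3G02630. S-ACP-DES6 was selected on its measured counts, which were high in prt6-1, so its values are given as a description with no test. The other 6 genes were taken because they are annotated as acyl-ACP desaturases. Whole seedlings were grown for 7 days in continuous light on 1/2 MS agar without sucrose, with 4 biological replicates of each of 3 genotypes. In prt6-1 the E3 ligase PRT6, which recognises proteins with a destabilising amino terminus, was mutated. In prt6-1erfvii the 5 genes for ERFVII transcription factors (HRE1, HRE2, RAP2.3, RAP2.12 and RAP2.2) were mutated in addition. Col-0 was the wild type. The comparison of prt6-1 with prt6-1erfvii asks what stabilised ERFVIIs do to transcripts, and Col-0 gives the state with a working PRT6. Seedlings with the 5 ERFVII mutations and a working PRT6 were not analysed here, so the effect of losing ERFVIIs in the wild type could not be separated from that of losing both activities.

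Acyl-ACP desaturases are soluble enzymes of the plastid. They introduce the first double bond into a saturated acyl chain while it is still attached to acyl carrier protein (ACP), and so turn stearoyl-ACP into oleoyl-ACP. The reaction consumes molecular oxygen and takes electrons from reduced ferredoxin, and it proceeds at a centre of paired iron ions held by glutamate and histidine residues. SSI2, also called FAB2, is known as the main isoform of leaves, and its loss lowers oleic acid and switches on salicylic acid-dependent defence. S-ACP-DES6 is a member of the core set of transcripts that rise under hypoxia, and ERFVIIs, which are degraded in the presence of oxygen and nitric oxide, are known activators of that set.

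The catalytic core was compared first, because it shows how alike the 7 genes are and where S-ACP-DES6 stands among them. The stretches below are the coding sequence around the first iron-binding motif of each gene, 45 bases long, 5′ to 3′ on the plus strand and within a single exon, read from RefSeq TAIR10.1. Capitals mark bases that differ from SSI2.
SSI2, chr2:18121736-18121780: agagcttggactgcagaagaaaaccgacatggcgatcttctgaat
S-ACP-DES6, chr1:16578327-16578371: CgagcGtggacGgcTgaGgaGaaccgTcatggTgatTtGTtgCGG
AT5G16240, chr5:5308607-5308651: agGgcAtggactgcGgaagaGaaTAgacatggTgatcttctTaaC
AT3G02630, chr3:563257-563301: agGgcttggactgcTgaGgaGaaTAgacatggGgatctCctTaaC
AT5G16230, chr5:5305176-5305220: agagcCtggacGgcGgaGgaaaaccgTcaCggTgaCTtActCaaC
AT3G02610, chr3:556668-556712: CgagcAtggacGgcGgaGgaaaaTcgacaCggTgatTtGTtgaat
AT3G02620, chr3:560947-560991: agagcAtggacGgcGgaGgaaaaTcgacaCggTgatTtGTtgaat
S-ACP-DES6 differed from SSI2 at 14 of the 45 bases, the most of the 6 genes, and the others differed at 9 to 12. In S-ACP-DES6 11 of the 15 codons differed and 1 of these changed the encoded residue. In the other 5 genes 9 to 11 codons differed and 0 changed the residue. Over the whole coding sequence S-ACP-DES6 was the most distant member, with 62.5% to 65.4% identity to the other 6 genes. AT3G02610 and AT3G02620 were 94.25% identical and lie 2458 bp apart. AT5G16240 and AT3G02630 were 85.4% identical and are the members with 4 coding exons, against 3 in each of the other genes. AT5G16230 shared 81.5% with AT3G02610 and 80.8% with AT3G02620.

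The genes lie on chromosomes 1, 2, 3 and 5 on the plus strand. S-ACP-DES6 spans chr1:16577521-16579722 with 1490 bp of exon, and SSI2 spans chr2:18119873-18122889 with 1838 bp of exon. The chromosome 3 cluster holds AT3G02610 (chr3:555626-557723), AT3G02620 (chr3:560182-561979) and AT3G02630 (chr3:562030-564870), and the chromosome 5 pair holds AT5G16230 (chr5:5302905-5306088) and AT5G16240 (chr5:5306740-5309961). The nearest mutated locus lay 1.38 Mb away for SSI2, the closest case, where it is HRE2. Reads of 75 bases can be assigned to nearly all of the family: of all words of 75 bases in the exons, 2.58% of those in AT3G02610 and 2.02% of those in AT3G02620 occurred elsewhere in the genome, and 0 of those in the other 5 genes. Some counts of AT3G02610 and AT3G02620 are uncertain for that reason, since the authors kept uniquely mapped reads. AT5G16230 is overlapped on the opposite strand by the non-coding gene AT5G16235, which had 12 counts at most in any library.

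The sequence upstream of S-ACP-DES6 is shown beside that of SSI2, the member that differed most between the genotypes and the most abundant member. The sequences run from 250 bases before to 50 bases after the annotated start of the gene, in RefSeq TAIR10.1, plus strand, 5′ to 3′. Capitals mark AAACCA, a motif known from genes of the anaerobic response, and TATAAA on the minus strand.
S-ACP-DES6, chr1:16577271-16577570: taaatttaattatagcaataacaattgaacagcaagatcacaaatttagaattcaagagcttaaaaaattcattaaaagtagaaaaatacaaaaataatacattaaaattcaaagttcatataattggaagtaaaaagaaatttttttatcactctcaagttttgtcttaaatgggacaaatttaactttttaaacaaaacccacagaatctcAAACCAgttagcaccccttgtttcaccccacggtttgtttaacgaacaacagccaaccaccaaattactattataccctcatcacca
SSI2, chr2:18119623-18119922: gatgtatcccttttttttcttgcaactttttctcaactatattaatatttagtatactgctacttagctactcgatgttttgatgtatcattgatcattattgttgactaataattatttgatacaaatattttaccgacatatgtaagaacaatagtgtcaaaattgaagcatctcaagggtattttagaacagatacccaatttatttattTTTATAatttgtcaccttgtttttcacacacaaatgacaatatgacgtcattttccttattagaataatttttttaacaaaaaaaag
S-ACP-DES6 holds AAACCA 37 to 32 bases before its start. The motif, searched on both strands, was found in this window in 32% of 27443 protein-coding genes and in 1 of the 7 family genes, and its complement overlaps part of the hypoxia-responsive promoter element (HRPE). The HRPE itself, to which ERFVIIs are known to bind, had an exact match in this window in 0.0182% of genes and in 0 of the family. In the 1000 bases upstream it was found in 0.0692% of genes and again in 0 of the family. An exact match is so rare that its absence from a single gene says little. The paper searched for the HRPE with a motif-scanning program, in promoters and in gene regions. It reported the element in many genes that differed between prt6 and prt6 erfVII, and used published binding of HRE2 to core hypoxia genes. Whether S-ACP-DES6 is among those genes was not examined here. The closest stretch in S-ACP-DES6, accccttgtttc, begins 25 bases before the start and differs from the consensus at 2 positions. In these 1000 bases 22.97% of genes had a stretch as close or closer, AT3G02620 among them. The GCC box GCCGCC (2.57% of promoters) and the G box CACGTG (7.68%) were not found in the 300-base window of any member. ATCTA (53.95% of promoters) was found in 2 members and TATAAA (52.15%) in 4.

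The count table held 23156637 to 30582461 counts on genes per library. The labels were checked against the mutated genes. HRE1 had 0 counts in all prt6-1erfvii libraries, HRE2 had 2 at most and RAP2.3 had 22 at most, while RAP2.12 and RAP2.2 were lower than in Col-0 but present. PRT6 was lower in prt6-1erfvii than in Col-0 (9.06 ± 1.28 against 62.2 ± 4.14 CPM, which are counts scaled to the library total after TMM normalization, SD, n = 4 each). In the libraries labelled prt6-1 it was 64.1 ± 14.3 CPM, each above every prt6-1erfvii library. These 2 genotypes thus differed in the PRT6 transcript as well as in the ERFVII genes. Against Col-0 the log2 fold change of PRT6 in prt6-1 was 0.04 ± 0.15 (SE), so its level did not set the prt6-1 libraries apart from Col-0. Other transcripts did: HRE2, itself a hypoxia gene, was higher in prt6-1 than in Col-0 (log2 fold change 1.94 ± 0.32, SE; edgeR, adjusted p = 0.00150), and the 47 core hypoxia genes tested had a median log2 fold change of 0.76. Since S-ACP-DES6 is 1 of these genes, that median is not independent of it. High hypoxia transcripts are also the outcome under study, so they are no separate check of the prt6-1 label. Whether prt6-1 and prt6-1erfvii carry a like PRT6 lesion could not be settled from these counts. Green tissue markers (LHCB1.1, RBCS1A, PSBO1 and RCA) and root markers (CASP1, COBL9, EXPA7 and PYK10) were detected in every library. Seed storage markers summed to 1.84 to 21.4 CPM in prt6-1, 0.167 to 80.1 CPM in prt6-1erfvii and 0.197 to 42.0 CPM in Col-0. Because whole seedlings were used, fewer cells of a type and less RNA per cell cannot be told apart for any gene.

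S-ACP-DES6 was high in prt6-1 and low in both other genotypes. It had 2580, 1838, 2100 and 2902 counts in the 4 prt6-1 libraries, 33, 29, 58 and 38 counts in the prt6-1erfvii libraries and 124, 110, 80 and 83 counts in the Col-0 libraries. On the TMM scale these were 87.1 ± 16.4 CPM in prt6-1, 1.57 ± 0.65 CPM in prt6-1erfvii and 4.03 ± 1.06 CPM in Col-0 (mean ± SD of 4 libraries). The libraries of the 3 genotypes did not overlap, with every prt6-1 library above every Col-0 library and every Col-0 library above every prt6-1erfvii library. The fitted log2 difference was 5.81 ± 0.22 (SE) for prt6-1 against prt6-1erfvii, a 55.9-fold higher level. It was 4.44 ± 0.19 (SE) for prt6-1 against Col-0, which is 21.7-fold. In prt6-1erfvii the gene was 2.59-fold lower than in Col-0, with a log2 difference of -1.37 ± 0.25 (SE). By size of the log2 difference S-ACP-DES6 stood at position 8 from the top among 20857 genes in prt6-1 against prt6-1erfvii, and at position 8 among 20899 genes in prt6-1 against Col-0. Among the core hypoxia genes listed by the study, 47 were tested in both comparisons, and S-ACP-DES6 was the third highest in prt6-1 against prt6-1erfvii, where their median log2 difference was 0.60. It was the fourth highest in prt6-1 against Col-0, where the median was 0.76.

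**Figure D1:**
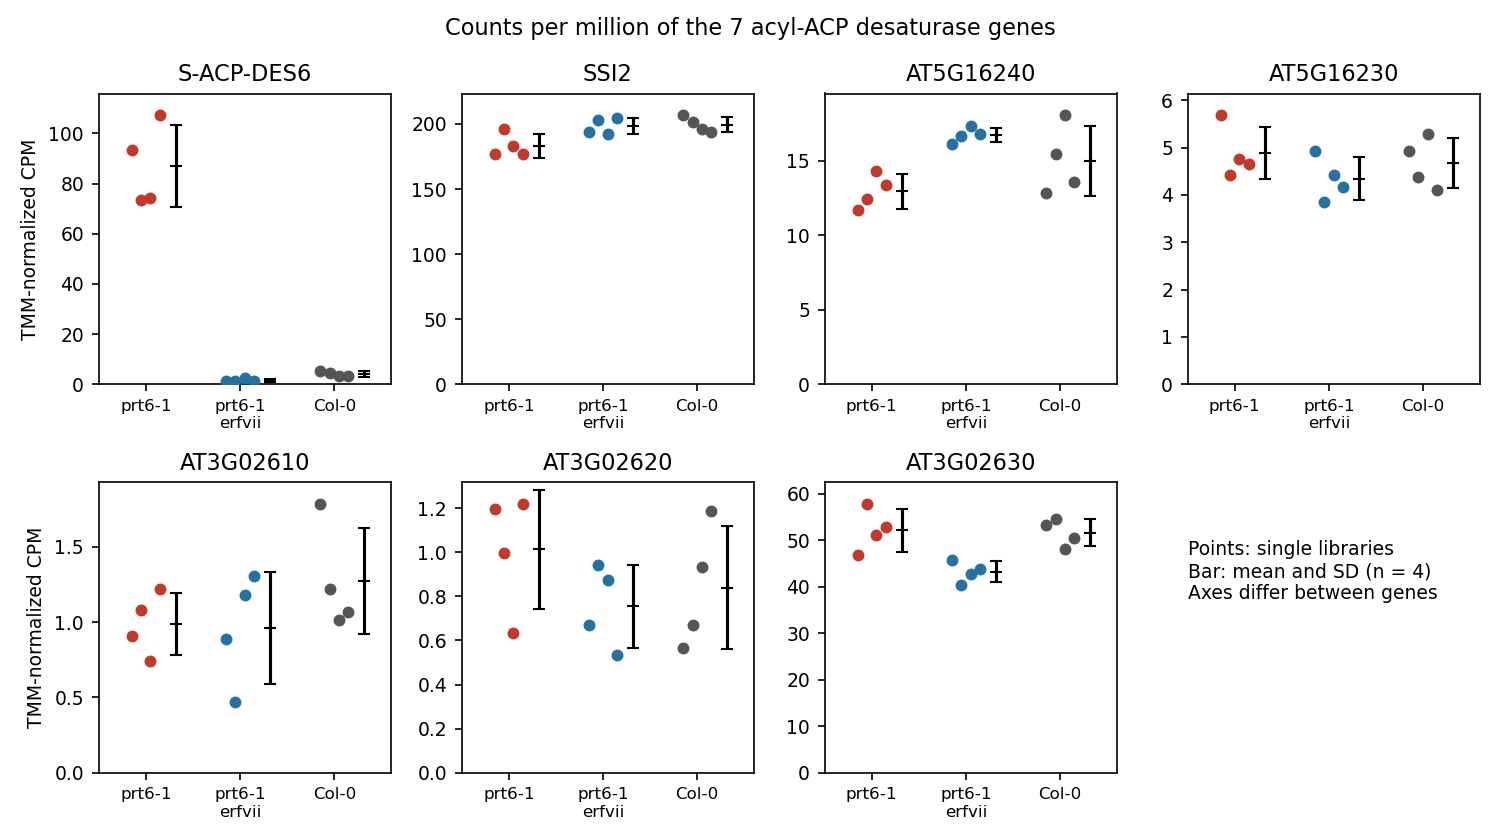
TMM-normalized CPM (vertical axes, which start at 0 and differ between genes) of the 7 desaturase genes in each library of prt6-1, prt6-1erfvii and Col-0, with the mean and SD of the 4 libraries beside the points. S-ACP-DES6 averaged 87.1 CPM in prt6-1, 1.57 CPM in prt6-1erfvii and 4.03 CPM in Col-0, while SSI2 stayed between 177 and 207 CPM in all libraries.

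The genes whose pattern over the 12 libraries was most like that of S-ACP-DES6 were known hypoxia genes with 1 exception. Likeness was measured as Pearson's r of log2 CPM (prior count of 2) among 21144 genes. Since the 12 libraries form 3 genotypes, it mostly reflects the order and spacing of the genotypes. S-ACP-DES6 was selected for high counts in prt6-1, so genes high in prt6-1 rank first by that choice. For scale, 47 of the 20857 genes tested between prt6-1 and prt6-1erfvii were core hypoxia genes. HB1, the non-symbiotic haemoglobin that scavenges nitric oxide, came first with r = 0.991. AtPDC1, a pyruvate decarboxylase of ethanolic fermentation, followed with r = 0.989. The transcription factor bHLH093 had r = 0.989 and is the gene of these 5 that is not in the core hypoxia list. ADH1, the alcohol dehydrogenase of the same fermentation, had r = 0.983, and SUS4, a sucrose synthase that feeds glycolysis, had r = 0.981. Their log2 differences between prt6-1 and prt6-1erfvii were 3.71 for HB1, 2.38 for AtPDC1, 1.94 for bHLH093, 3.25 for ADH1 and 3.65 for SUS4. Each was smaller than that of S-ACP-DES6, which was selected on its counts. HB1 averaged 79.3 CPM in prt6-1, 5.98 CPM in prt6-1erfvii and 9.70 CPM in Col-0, the same order of genotypes as S-ACP-DES6.

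SSI2 was the most abundant member in every genotype and moved little. It had 4879, 4903, 5174 and 4781 counts in prt6-1, 5216, 4738, 4396 and 6122 counts in prt6-1erfvii and 4748, 5122, 5028 and 4902 counts in Col-0. After scaling this was 183 ± 9 CPM in prt6-1, 198 ± 6 CPM in prt6-1erfvii and 199.6 ± 5.9 CPM in Col-0 (mean ± SD of 4 libraries), and the libraries of the genotypes overlapped. The log2 fold change was -0.13 ± 0.06 (SE) for prt6-1 against prt6-1erfvii (edgeR, adjusted p = 0.109) and -0.01 ± 0.05 (SE) for prt6-1erfvii against Col-0 (edgeR, adjusted p = 0.905). For prt6-1 against Col-0 it was -0.12 ± 0.06 (SE; edgeR, adjusted p = 0.370), with a 95% interval from -0.23 to -0.01 before adjustment for the genes tested.

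Of the 6 members other than S-ACP-DES6, all of which passed the filter on low counts, 2 were called between prt6-1 and prt6-1erfvii, in opposite directions. AT3G02630 was higher in prt6-1, as were 14.7% of all genes tested, and AT5G16240 was lower, as were 16.6%. The median log2 fold change of the 6 genes was 0.08, against -0.00 for all genes tested. Between prt6-1erfvii and Col-0, 1 of 6 was called lower (AT3G02630) and 0 were called higher, beside 18.7% and 18.5% of all genes. Between prt6-1 and Col-0, 0 of 6 were called by edgeR and 0 by DESeq2, and 1 had an unadjusted p under 0.05. The background in that comparison was 1.09% of genes higher and 1.09% lower. These counts are near what all genes show at the same threshold, and they are read as values of single genes.

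**Figure D2:**
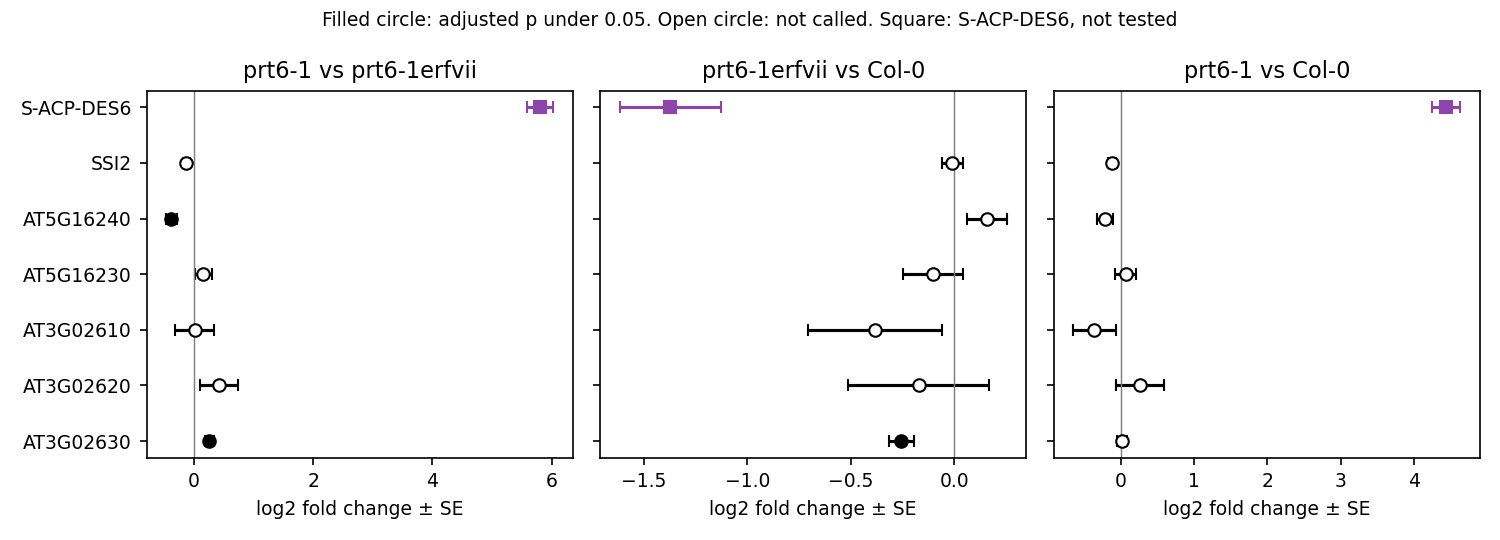
Log2 fold changes with their standard errors (horizontal axes, which differ between panels) of the 7 genes in prt6-1 against prt6-1erfvii, prt6-1erfvii against Col-0 and prt6-1 against Col-0, from 4 libraries of each genotype. Filled circles mark an adjusted p under 0.05, open circles genes that were not called, and the square S-ACP-DES6, which was not tested. AT5G16240 (-0.38) and AT3G02630 (0.26) lie on either side of 0 in the first panel.

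AT3G02630, the second most abundant member in Col-0 and prt6-1erfvii, was lower in prt6-1erfvii than in both other genotypes. It had 1290, 1449, 1447 and 1428 counts in prt6-1, 1232, 940, 978 and 1314 counts in prt6-1erfvii and 1220, 1387, 1233 and 1277 counts in Col-0. Its mean was 52.1 ± 4.6 CPM in prt6-1, 43.2 ± 2.3 CPM in prt6-1erfvii and 51.6 ± 2.9 CPM in Col-0 (mean ± SD of 4 libraries). All prt6-1erfvii libraries lay below all prt6-1 and all Col-0 libraries. The log2 fold change was 0.26 ± 0.07 (SE) for prt6-1 against prt6-1erfvii (edgeR, adjusted p = 0.0113) and -0.26 ± 0.06 (SE) for prt6-1erfvii against Col-0 (edgeR, adjusted p = 0.00169), 2 values that share the prt6-1erfvii libraries. Without prt6-1 replicate 2 the gene was no longer called in the first comparison (log2 fold change 0.21, edgeR, adjusted p = 0.0513), which left 1 family gene called. AT3G02630 ends 13 bp before its neighbour AT3G02640, which lies on the opposite strand and was also lower in prt6-1erfvii than in Col-0 (log2 fold change -0.43 ± 0.10, SE; edgeR, adjusted p = 0.00405). The library kit kept strand information, but whether the counting used it is not given in the sources used here, and the part of shared reads at this junction was not tested.

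AT5G16240, the closest relative of AT3G02630, went the other way. It had 322, 311, 406 and 361 counts in prt6-1, 435, 389, 396 and 503 counts in prt6-1erfvii and 294, 393, 464 and 343 counts in Col-0. Its mean was 12.9 ± 1.2 CPM in prt6-1, 16.7 ± 0.5 CPM in prt6-1erfvii and 14.98 ± 2.34 CPM in Col-0 (mean ± SD of 4 libraries). The prt6-1 libraries all lay below the prt6-1erfvii libraries, and the Col-0 libraries spread over both. The log2 fold change was -0.38 ± 0.09 (SE) for prt6-1 against prt6-1erfvii (edgeR, adjusted p = 0.00294). It was 0.16 ± 0.10 (SE) for prt6-1erfvii against Col-0 (edgeR, adjusted p = 0.214), and without Col-0 replicate 3, the highest of its group, it became 0.26 with an adjusted p of 0.0364, which made 2 family genes called. For prt6-1 against Col-0 it was -0.21 ± 0.11 (SE; edgeR, adjusted p = 0.453). The neighbour AT5G16250, which lies 90 bp beyond the end of AT5G16240 on the opposite strand, was higher in prt6-1 than in prt6-1erfvii (log2 fold change 0.23 ± 0.08, SE; edgeR, adjusted p = 0.0329), opposite to AT5G16240.

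The remaining 3 members had low counts. AT5G16230 had 111 to 157 counts in prt6-1, 90 to 133 in prt6-1erfvii and 104 to 136 in Col-0. AT3G02610 had 21 to 33 counts in prt6-1, 11 to 39 in prt6-1erfvii and 26 to 41 in Col-0, and AT3G02620 had 18 to 33, 16 to 22 and 13 to 30 counts in the same order of genotypes. The libraries of the genotypes overlapped for all 3 genes in all 3 comparisons. Their log2 fold changes ran from -0.38 to 0.42, with standard errors of 0.14 to 0.34 and adjusted p-values of 0.353 to 0.983 (edgeR). At this depth the 95% interval for AT3G02620 in prt6-1 against prt6-1erfvii reached from -0.21 to 1.06, so a difference as large as that of AT3G02630 was not detectable in the less abundant pair.

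Levels were compared between members per kilobase of exon. In prt6-1 the order was SSI2 (99.6 ± 4.9 CPM per kilobase), S-ACP-DES6 (58.5 ± 10.99), AT3G02630 (31.2 ± 2.8), AT5G16240 (7.41 ± 0.66), AT5G16230 (2.66 ± 0.30), AT3G02610 (0.683 ± 0.144) and AT3G02620 (0.602 ± 0.161), all SD with n = 4. Every neighbour in that order was separated by non-overlapping libraries except AT3G02610 and AT3G02620. In prt6-1erfvii S-ACP-DES6 stood at position 5, with 1.05 ± 0.43 CPM per kilobase, and its libraries overlapped those of AT3G02610 at 0.666 ± 0.256. In Col-0 it stood at position 4, with 2.71 ± 0.71 CPM per kilobase, overlapping AT5G16230 at 2.54 ± 0.29. SSI2, AT3G02630 and AT5G16240 held the same relative order in the 3 genotypes.

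The make-up of the family differed accordingly. S-ACP-DES6 accounted for 31.7%, 24.5%, 26.0% and 34.0% of the summed per-kilobase level in the prt6-1 libraries, with a mean of 29.1% ± 4.6. Its share was 0.714% ± 0.304 in prt6-1erfvii and 1.74% ± 0.41 in Col-0 (mean ± SD of 4 libraries). SSI2 accounted for 49.7% ± 3.4 in prt6-1, 72.98% ± 1.35 in prt6-1erfvii and 70.2% ± 0.5 in Col-0. Per kilobase, SSI2 was 1.69-fold above S-ACP-DES6 in prt6-1, 102-fold in prt6-1erfvii and 40.3-fold in Col-0. The summed level was 200.6 ± 8.4 CPM per kilobase in prt6-1, 148 ± 3 in prt6-1erfvii and 155 ± 5 in Col-0. Without S-ACP-DES6 the sum was 142 ± 7 in prt6-1, 147 ± 3 in prt6-1erfvii and 152 ± 4 in Col-0, so the higher sum in prt6-1 came with S-ACP-DES6 and not with the other members.

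**Figure D3:**
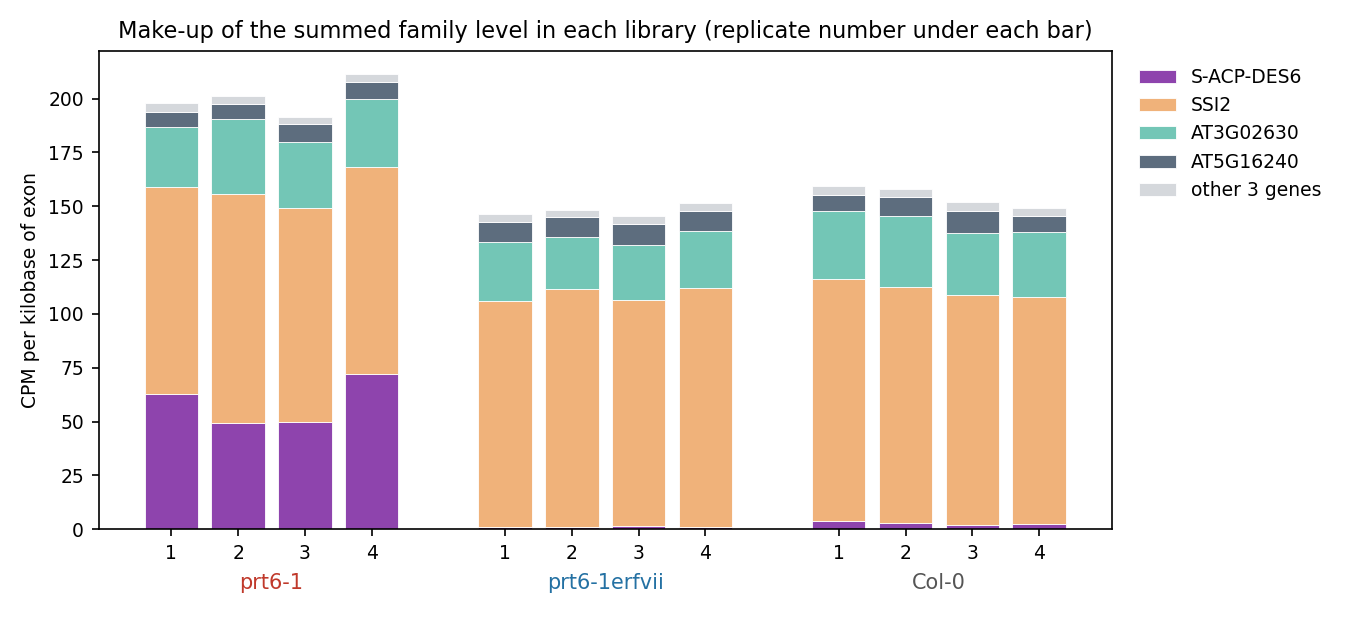
Summed level of the family in CPM per kilobase of exon (vertical axis) in each of the 12 libraries, stacked by gene, with prt6-1, prt6-1erfvii and Col-0 from left to right and the replicate number under each bar. The S-ACP-DES6 part makes 24.5% to 34.0% of the bar in prt6-1, 0.561% to 1.17% in prt6-1erfvii and 1.38% to 2.27% in Col-0.

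The genes around the desaturase step were taken as 9 lists by function, 67 genes in all. They cover the supply of acetyl-CoA, the elongation of acyl chains, the ACPs and the enzymes that use oleoyl-ACP. Also covered are the membrane-bound desaturases that add further double bonds and the ferredoxin system that supplies electrons. The other lists hold acyl-CoA binding proteins, regulators, and genes known to be altered in the ssi2 mutant, which are defence genes and NOA1. Between prt6-1 and prt6-1erfvii, 60 genes were tested, and 27 were lower (45%, against 16.6% of all genes) and 7 higher (11.7%, against 14.7%), with a median log2 fold change of -0.14 beside -0.00 for all genes. Of the 4 green tissue markers 1, LHCB1.1, was lower in prt6-1 than in prt6-1erfvii too (-0.34 ± 0.08, SE; edgeR, adjusted p = 0.00459), and the markers summed to 28328 to 32402 CPM in prt6-1 and 29309 to 33600 CPM in prt6-1erfvii. The part of green tissue in the pathway values was not tested. Between prt6-1erfvii and Col-0, 23 of 60 were higher (38.3%, against 18.5%) and 9 lower (15%, against 18.7%), with a median of 0.04 beside -0.01. The prt6-1erfvii libraries enter both of these comparisons. Between prt6-1 and Col-0, 2 of 63 were lower (3.17%, against 1.09%) and 0 were higher (against 1.09%) by edgeR. The counts by DESeq2 were the same, and 13 had an unadjusted p under 0.05 by edgeR.

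In the supply of carbon, 6 of 7 subunits of the plastid pyruvate dehydrogenase were lower in prt6-1 than in prt6-1erfvii (85.7%, against 16.6% of all genes). The enzyme makes acetyl-CoA for fatty acid synthesis, and 5 of 7 subunits were higher in prt6-1erfvii than in Col-0 (71.4%, against 18.5%). EMB3003, an E2 subunit named because its call was lost, dropped out of the 6 without the filter on low counts (edgeR, adjusted p = 0.0658), with a replicate block (adjusted p = 0.0954) and without any 1 of 5 libraries. LPD1 and LPD2, its dihydrolipoamide dehydrogenases, had log2 fold changes of -0.48 ± 0.06 and -0.49 ± 0.06 (SE) for prt6-1 against prt6-1erfvii, and of 0.41 ± 0.05 and 0.32 ± 0.05 (SE) for prt6-1erfvii against Col-0. Of 12 genes of plastid fatty acid synthesis, 4 were lower in prt6-1 than in prt6-1erfvii (33.3%, against 16.6% of all genes) and 3 were higher in prt6-1erfvii than in Col-0 (25%, against 18.5%). CAC3, a carboxyltransferase subunit of acetyl-CoA carboxylase, was among both, and in the first comparison it was no longer called with a replicate block (edgeR, adjusted p = 0.0812) or without any 1 of 3 libraries, and in the second without any 1 of 4. The genes called include KASII (FAB1), which elongates palmitoyl-ACP to the substrate of the desaturases. KASII averaged 148 ± 7 CPM in prt6-1, 183 ± 4 CPM in prt6-1erfvii and 154 ± 6 CPM in Col-0, with a log2 fold change of -0.32 ± 0.06 (SE; edgeR, adjusted p = 0.000319) for prt6-1 against prt6-1erfvii. CAC2, the biotin carboxylase of acetyl-CoA carboxylase, was -0.28 ± 0.06 (SE) on the same scale. Of the 4 ACPs tested there, 3 were lower in prt6-1 (75%, against 16.6%), led by ACP4, the main leaf ACP, at -0.45 ± 0.08 (SE). ACP3, also among the 3, was no longer called with a replicate block (edgeR, adjusted p = 0.0508) or without any 1 of 6 libraries. ACP2 had a log2 fold change of 0.18 ± 0.07 (SE; edgeR, adjusted p = 0.0514) and was called higher in prt6-1 by DESeq2 (adjusted p = 0.0408), with the size factors of DESeq2, without the filter on low counts and in the single fit. Between prt6-1erfvii and Col-0, 2 of 4 were higher (50%, against 18.5%) and ACP2 was lower (-0.19 ± 0.05, SE), which is 25%, against 18.7%. ACP4, 1 of the 2, was no longer called in the single fit (edgeR, adjusted p = 0.0812) or without any 1 of 6 libraries.

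Downstream of the desaturases the genes split. FATA1 and FATA2 encode the thioesterases that release oleate from ACP, and they were called in opposite directions. FATA1 averaged 20.0 ± 1.4 CPM in prt6-1, 15.8 ± 1.0 CPM in prt6-1erfvii and 20.8 ± 2.8 CPM in Col-0, with a log2 fold change of 0.33 ± 0.08 (SE; edgeR, adjusted p = 0.00568) for prt6-1 against prt6-1erfvii. FATA2 averaged 32.5 ± 0.4 CPM in prt6-1, 41.4 ± 2.8 CPM in prt6-1erfvii and 36.7 ± 1.8 CPM in Col-0, with a log2 fold change of -0.36 ± 0.07 (SE; edgeR, adjusted p = 0.000527). LACS9, the long-chain acyl-CoA synthetase of the plastid envelope, was higher in prt6-1 than in prt6-1erfvii (0.38 ± 0.07, SE), and ATS1, the plastid acyltransferase that uses oleoyl-ACP, was lower (-0.28 ± 0.06, SE). In all, 3 of 8 genes of this list were lower in prt6-1 than in prt6-1erfvii (37.5%, against 16.6% of all genes) and 2 higher (25%, against 14.7%).

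Among the 9 membrane-bound desaturases, 6 were lower (66.7%, against 16.6% of all genes) and 1 higher (11.1%, against 14.7%) in prt6-1 than in prt6-1erfvii. In prt6-1erfvii against Col-0, 6 were higher (66.7%, against 18.5%) and 1 lower (11.1%, against 18.7%). The plastid enzymes FAD4 and FAD5, which desaturate palmitoyl chains of phosphatidylglycerol and of galactolipid, had the largest differences in both. FAD4 had 44.1 to 46.7 CPM in prt6-1, 70.4 to 83.8 CPM in prt6-1erfvii and 45.8 to 52.7 CPM in Col-0, so prt6-1erfvii lay apart from both. Its log2 fold change was -0.77 ± 0.07 (SE; edgeR, adjusted p = 6.72e-08) for prt6-1 against prt6-1erfvii and 0.67 ± 0.06 (SE; edgeR, adjusted p = 9.94e-09) for prt6-1erfvii against Col-0. FAD5 followed with -0.68 ± 0.06 and 0.52 ± 0.06 (SE), and FAD8, a plastid omega-3 desaturase, with -0.43 ± 0.07 and 0.42 ± 0.05 (SE). FAD2, the oleate desaturase of the endoplasmic reticulum, named because its call was lost, dropped out of the 6 lower genes without the filter on low counts (edgeR, adjusted p = 0.0571), with a replicate block (adjusted p = 0.0858) and without any 1 of 6 libraries. FAD3, the omega-3 desaturase of the endoplasmic reticulum, was the member called in the opposite direction, at 0.37 ± 0.07 and -0.23 ± 0.06 (SE).

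In the ferredoxin system the root-type isoforms moved together and the leaf-type isoforms did not. The root-type ferredoxin-NADP reductases RFNR1 and RFNR2 and root-type ferredoxin FD3 were lower in prt6-1erfvii than in both other genotypes. Of the leaf-type isoforms, FD1 was higher in prt6-1erfvii than in both other genotypes, while FD2 was lower in prt6-1 than in prt6-1erfvii (-0.38 ± 0.09, SE) and was not called between prt6-1erfvii and Col-0 (0.02 ± 0.06, SE; edgeR, adjusted p = 0.850). LFNR2, a leaf-type reductase named after its values were seen, was lower in prt6-1erfvii than in Col-0 (-0.14 ± 0.05, SE; edgeR, adjusted p = 0.0308). This call was lost in the single fit over 12 libraries (edgeR, adjusted p = 0.0506). It was also lost when single libraries were left out, up to an adjusted p of 0.124 without prt6-1erfvii replicate 4 (edgeR). LFNR1 was not called in the 3 comparisons. RFNR2 had 128 to 190 CPM in prt6-1, 58.4 to 69.2 CPM in prt6-1erfvii and 152 to 178 CPM in Col-0, which is a log2 fold change of 1.33 ± 0.11 (SE; edgeR, adjusted p = 5.34e-07) for prt6-1 against prt6-1erfvii and -1.40 ± 0.06 (SE; edgeR, adjusted p = 2.03e-14) for prt6-1erfvii against Col-0. RFNR1 was at 0.49 ± 0.07 and -0.61 ± 0.06, FD3 at 0.57 ± 0.08 and -0.60 ± 0.05, and FD1 at -0.36 ± 0.07 and 0.24 ± 0.05 (SE) in the same comparisons. Of the 9 genes of the list tested, 3 were higher (33.3%, against 14.7% of all genes) and 3 lower (33.3%, against 16.6%) in prt6-1 than in prt6-1erfvii. In prt6-1erfvii against Col-0, 1 was higher (11.1%, against 18.5%) and 4 were lower (44.4%, against 18.7%). FDC1, 1 of the 3 genes lower in prt6-1 than in prt6-1erfvii, is named because its call was lost. It was not called with a replicate block (edgeR, adjusted p = 0.0593). Leaving out single libraries also removed the call, up to an adjusted p of 0.111 without prt6-1erfvii replicate 3 (edgeR). Of the 4 root markers, the root hair genes COBL9 (-0.82 ± 0.17, SE) and EXPA7 (-0.78 ± 0.16, SE) were lower in prt6-1erfvii than in Col-0, PYK10 was higher (0.26 ± 0.06, SE) and CASP1 was not called (-0.14 ± 0.10, SE). The summed root markers were 4500 to 4983 CPM in prt6-1, 5166 to 5937 CPM in prt6-1erfvii and 4320 to 4963 CPM in Col-0. PYK10 made up nearly all of these sums, with means of 4652 CPM in prt6-1, 5540 CPM in prt6-1erfvii and 4630 CPM in Col-0. The part of root tissue in the ferredoxin values was not tested.

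**Figure D4:**
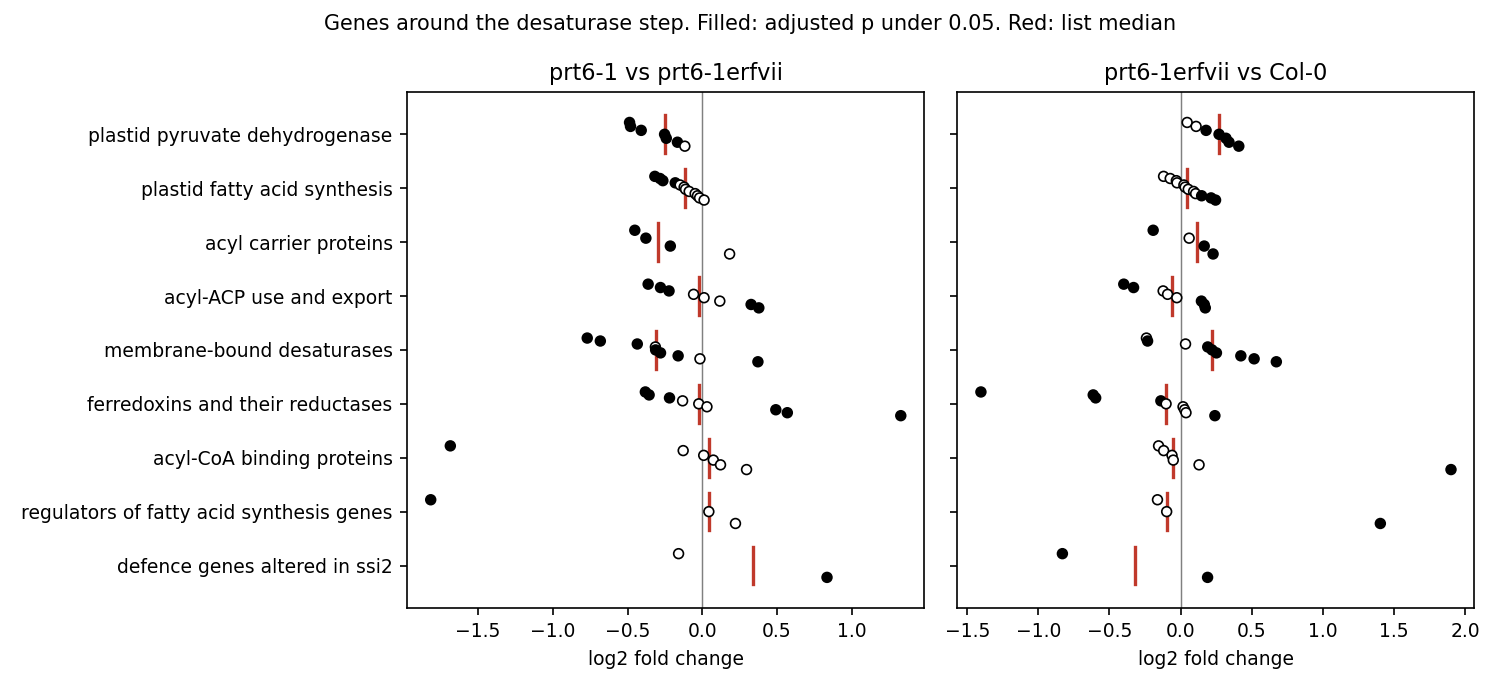
Log2 fold changes (horizontal axes) of the tested genes of the 9 lists around the desaturase step, for prt6-1 against prt6-1erfvii on the left and prt6-1erfvii against Col-0 on the right, with 1 point per gene, filled where the adjusted p was under 0.05, and the list median as a red line. The prt6-1erfvii libraries enter both panels. RFNR2 is the point farthest to the right on the left (1.33), and ACBP3 on the right (1.90).

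ACBP3 and WRI4 had the largest differences of the genes tested in these lists, in both comparisons with prt6-1erfvii. ACBP3, an acyl-CoA binding protein known from leaf senescence and autophagy, had 28.9 to 39.8 CPM in prt6-1, 97.9 to 119.5 CPM in prt6-1erfvii and 27.2 to 31.4 CPM in Col-0. Its log2 fold change was -1.69 ± 0.09 (SE; edgeR, adjusted p = 1.13e-09) for prt6-1 against prt6-1erfvii and 1.90 ± 0.07 (SE; edgeR, adjusted p = 6.53e-16) for prt6-1erfvii against Col-0. It was the 1 gene called of 6 acyl-CoA binding proteins in each of these comparisons, a share of 16.7% beside 16.6% of all genes lower in prt6-1 than in prt6-1erfvii and 18.5% higher in prt6-1erfvii than in Col-0. ACBP1 and ACBP2, membrane-anchored members known to interact with ERFVII proteins, were not called in the 3 comparisons, with log2 fold changes from -0.13 to 0.13. WRI4, a relative of the fatty acid regulator WRI1 that acts in wax synthesis, averaged 5.98 ± 1.14 CPM in prt6-1, 21.0 ± 1.5 CPM in prt6-1erfvii and 7.92 ± 1.18 CPM in Col-0. WRI1 itself had log2 fold changes of -0.10 to 0.04 and was not called. MYB115 and MYB118, which activate acyl-ACP desaturase genes in seeds, had 0 counts in all 12 libraries.

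The list of 5 genes altered in ssi2 holds defence genes and NOA1. Of these 5, 2 were tested in both comparisons with prt6-1erfvii, namely PR5 and NOA1. Of the 2 tested, 1 was higher in prt6-1 than in prt6-1erfvii (50%, against 14.7% of all genes) and 0 were lower (against 16.6%). In prt6-1erfvii against Col-0, 1 was higher (50%, against 18.5%) and 1 lower (50%, against 18.7%). PR5, a marker of salicylic acid signalling, was higher in prt6-1 than in prt6-1erfvii (0.84 ± 0.14, SE; edgeR, adjusted p = 0.000181) and lower in prt6-1erfvii than in Col-0 (-0.83 ± 0.14, SE; edgeR, adjusted p = 6.84e-05). NOA1, a nitric oxide-associated gene, went the other way and was higher in prt6-1erfvii than in Col-0 (0.19 ± 0.06, SE; edgeR, adjusted p = 0.0221). This call was lost in the single fit over 12 libraries (edgeR, adjusted p = 0.0541). It was also lost when single libraries were left out, up to an adjusted p of 0.0824 without Col-0 replicate 3 (edgeR). The level of PR5 in prt6-1 was 9.49 ± 0.99 CPM and in Col-0 9.38 ± 1.33 CPM. PR1, another marker of salicylic acid signalling, had 0 counts in prt6-1, 3 at most in prt6-1erfvii and 7 at most in Col-0, and it was left out by the filter on low counts. PR2 (33 counts at most in prt6-1, 8 in prt6-1erfvii and 18 in Col-0) and PDF1.2A (25, 6 and 19 in the same order) passed the filter between prt6-1 and Col-0, where they were not called.

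In prt6-1 against Col-0, where S-ACP-DES6 was 21.7-fold higher, the genes called in the 9 lists were ACP4 (-0.27 ± 0.07, SE; edgeR, adjusted p = 0.0372) and FD2, the most abundant leaf ferredoxin (-0.35 ± 0.08, SE; edgeR, adjusted p = 0.0272). The count of 2 depended on single libraries. It was 7 without prt6-1 replicate 4, 1 without Col-0 replicate 1 or replicate 3, and 0 without any 1 of the 5 other libraries. All genes called in this comparison numbered 455, and 1231 without prt6-1 replicate 4 and 281 without Col-0 replicate 2. The green tissue marker LHCB1.1 was lower in prt6-1 than in Col-0 as well (-0.44 ± 0.06, SE), while the 3 other green tissue markers were not called. The part of green tissue in the values of ACP4 and FD2 was not tested.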

How the data were processed

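Poly(A) RNA of whole 7-day-old seedlings was sequenced as paired reads of 75 bases from 12 libraries. Per the methods of the authors, skewer removed adaptors and poor bases, HISAT2 2.1.0 aligned the reads to TAIR10, reads without a unique and correct alignment were discarded, and featureCounts 1.6.0 gave a count for every gene. The deposited values are raw counts with no normalization for 37885 genes in 12 columns, of which 0 were left without a sample. Lengths, coordinates and sequences came from RefSeq TAIR10.1, which held 37882 of the gene identifiers.

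All other values were derived here. Depth on genes was 23156637 to 30582461 counts per library. Replicate libraries differed by more than sampling noise (chi-square per degree of freedom 3.88 to 15.1). In prt6-1 the pairs with replicate 4 gave 12.0 to 15.1, and the other pairs gave 5.12 to 5.74. Outside prt6-1 the highest value was 11.4, for replicates 1 and 3 of prt6-1erfvii. The 8 libraries of a comparison were fitted separately by the quasi-likelihood test of edgeR 4.0.16 in R 4.3.3, with TMM scaling, filterByExpr and robust dispersions. P-values were adjusted over all genes tested after Benjamini and Hochberg, and genes with an adjusted p below 0.05 were called. SE is the absolute log2 fold change divided by the square root of F, and 95% intervals come from the normal distribution with that SE. CPM used TMM over 12 libraries, and per-kilobase levels used the union of exons. DESeq2 1.42.0, its size factors in edgeR, no filter on low counts, a single fit over 12 libraries, a replicate block and each library left out were alternatives, as were raw library totals and coding length for levels. The fits were tested on simulated data.

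The members and gene lists were chosen with earlier results of these data known. Genes outside the family were named if they were in a list and among its 4 largest called differences of a comparison, or were set by name (KASII, FATA1, FATA2, WRI1, MYB115, MYB118, PR1, ACBP1 and ACBP2), or were among the 5 genes most like S-ACP-DES6, mutated genes or direct neighbours. Core hypoxia genes were taken from the study's list of 49, as identifiers only. Sequence matching used Python 3.11.15 with Biopython 1.88.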

Additional observations from a re-analysis of the deposited data

Results flagged for a closer look

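S-ACP-DES6 in prt6-1erfvii replicate 3 stood apart from its group, at 2.54 CPM (58 counts) against 1.22 to 1.27 CPM in the other 3 prt6-1erfvii libraries. The gap to the nearest library was 0.966 of the group's range and is given as a description, since the gene was selected on its counts. In all, 21 groups of 4 values were examined, 7 genes in 3 genotypes, and chance alone singles out about 1 in 20. Of the 5 genes most like S-ACP-DES6, 4 had values in this library within the range of the other 3, such as ADH1 at 3.54 CPM beside 3.24 to 4.75 CPM. SUS4 was highest in it, at 1.62 CPM beside 1.15 to 1.54 CPM. Without this library the log2 difference of S-ACP-DES6 was 6.11 for prt6-1 against prt6-1erfvii and -1.69 for prt6-1erfvii against Col-0.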

How the results depend on the processing

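The calls within the family did not change with DESeq2, with its size factors, without the filter on low counts, in a single fit over 12 libraries or with a replicate block. With 1 library left out, the family genes called ranged from 1 to 2 for prt6-1 against prt6-1erfvii and from 1 to 2 for prt6-1erfvii against Col-0. Between prt6-1 and Col-0, the pathway genes called ranged from 0 to 7 and all genes called from 281 to 1231. The main fits did not pair libraries by replicate number. Deviations of same-numbered libraries correlated from -0.08 to 0.16, and those of other pairs from -0.16 to 0.12. The highest value was for replicate 2 of prt6-1erfvii and Col-0, and whether replicate numbers mark a shared effect was not tested. With the replicate block 29, 33 and 2 pathway genes and 5721, 8406 and 540 genes in all were called for prt6-1 against prt6-1erfvii, prt6-1erfvii against Col-0 and prt6-1 against Col-0. Of the values of single genes under all alternatives, 2727 kept their side of the threshold or stayed within their spread. Another 84 lost a call, 22 gained one and 17 levels per kilobase moved beyond 1 SD with coding length. Some genes that were not called changed sign, such as AT3G02610 for prt6-1 against prt6-1erfvii (log2 fold change -0.21 to 0.22 over libraries left out). Among the calls lost was FATA2 for prt6-1erfvii against Col-0 (log2 fold change 0.14 to 0.21 over libraries left out). Raw library totals and coding length in place of exon length left the S-ACP-DES6 share within its spread over libraries. The levels themselves shifted: with coding length SSI2 was at 151.8 and S-ACP-DES6 at 74.1 CPM per kilobase in prt6-1. In Col-0, S-ACP-DES6 (3.43 CPM per kilobase) then came below AT5G16230 (3.88). AT3G02610 and AT3G02620, with 11 to 41 counts per library, are where depth limits the comparison most. Whole seedlings give no information on which tissue or cell type a difference comes from, and transcript levels say nothing about the amount of enzyme or of fatty acids.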

Other observations

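AT3G02630 and AT5G16240, the 85.4% identical members that were called in opposite directions, were also compared as a ratio within each library, a measure chosen after their values had been seen. The log2 ratio of AT3G02630 to AT5G16240 was 2.01 ± 0.16 in prt6-1, 1.37 ± 0.10 in prt6-1erfvii and 1.80 ± 0.27 in Col-0 (mean ± SD of 4 libraries). All prt6-1 libraries (1.83 to 2.22) lay above all prt6-1erfvii libraries (1.273 to 1.502), which the non-overlapping levels of the 2 genes fix in advance, so no test is given. The Col-0 libraries (1.41 to 2.05) overlapped both.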
